A study of Homo sapiens with 14 samples.

Results

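Adenosine sites that read as guanosine were compared between HEK293T cells carrying the RNA base editor REPAIRv2 with the EZH2_A22 guide and the same cells and editor with the NT guide. Every site that any of the 4 REPAIRv2 lists held was kept, keyed by chromosome and position, with no threshold on its level. This gave 205 distinct sites of the 26172 that all 14 lists of the series hold. REPAIRv2 (Repair.v2 in the sample titles) had 2 NT and 2 EZH2_A22 libraries, made from polyadenylated RNA and read for 25 and 97 cycles. HEK293T is an established epithelial line from human embryonic kidney. The labels give no dose, no time after delivery and no expression level of the editor, they do not spell out NT or A22, and they leave unstated whether replicate libraries stem from separate cultures. The p-values below therefore reflect only how far these libraries vary, and that variation may be technical. Libraries of REPAIR.t1 (NT and EZH2_A22 guides, 4 libraries) and dCas13d-ADAR (NT and EZH2 guides, 4 libraries), read for the same number of cycles, are used only to follow the REPAIRv2 sites. Libraries of DECOR, labelled MALAT1 and read for other numbers of cycles (2 libraries), are used only to look up listed positions. All 14 libraries carry an editor, and sites of cells without one were not analysed here.

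An ADAR enzyme removes an amino group from adenosine in double-stranded RNA, which leaves inosine, and inosine pairs and is sequenced like guanosine. In REPAIRv2 a Cas13 protein that no longer cuts RNA is fused with an ADAR deaminase domain, which was engineered for fewer edits away from the target than in the parent editor. A guide RNA pairs with the transcript to be edited and brings the deaminase to 1 adenosine, while edits elsewhere in the transcriptome are counted as off-target. EZH2 encodes the catalytic subunit of the Polycomb repressive complex that methylates histones. A comparison of a targeting guide with the NT guide asks which edits come with the guide and which come with the editor.

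Each value below is an editing level, the A-to-G rate of a site as a fraction from 0 to 1. Positions are on hg19 (GRCh37), named by the submitters' processing notes. Genes, transcript regions, strands and neighbouring bases were not analysed here, because the gene tables used are of another build, GRCh38.p14. The lists give no read depth, so the depth behind a level is unknown and no counting error can be attached to it. Absence of a site from a list does not separate no editing from low editing or thin coverage. Expression of marker genes cannot be read from such lists, so the cell line label was not checked against them. No 2 of the 14 lists were identical.

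With the EZH2_A22 guide the REPAIRv2 lists were about 2 times as long as those with the NT guide, while the levels of the listed sites lay in the same range. The NT libraries listed 46 and 46 sites, and the EZH2_A22 libraries 87 and 101. Both EZH2_A22 lists were thus longer than both NT lists, by 1.89 to 2.20 times over the 4 pairs, and the ratio of geometric means was 2.04. On log10 site numbers the exact permutation test (two-sided) gave p = 0.333, which is the smallest p that 2 libraries against 2 allow. The same ratio was 1.06 for REPAIR.t1 and 1.01 for dCas13d-ADAR. The REPAIRv2 ratio was 1.97 times the geometric mean of these 2 (two-sided exact permutation p = 0.324, guide labels permuted within each editor). With the other ratios near 1, this p rests mainly on the 6 arrangements of the REPAIRv2 libraries, which alone cannot go below 0.333. The test therefore cannot decide whether the ratios differ.

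The additional EZH2_A22 sites were spread over low, middle and high levels, though not evenly. Below 0.15 the NT libraries held 6 and 6 sites and the EZH2_A22 libraries 12 and 7. From 0.15 to 0.2 they held 6 and 11 against 8 and 18, so there the guides overlapped. At a level of at least 0.2 the NT libraries held 34 and 29 sites and the EZH2_A22 libraries 67 and 76. From 0.3 upwards these numbers were 18 and 13 against 34 and 38, and from 0.4 upwards 3 and 5 against 8 and 11. The ratio of geometric means was 2.27, 2.35 and 2.42 at these 3 minimum levels. Few sites reached 0.5, with 1 and 3 in the NT libraries and 3 and 5 in the EZH2_A22 libraries, and there the numbers of the 2 guides met at 3.

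Median levels of the lists did not separate the guides. They were 0.273 and 0.244 in the NT libraries and 0.261 and 0.250 in the EZH2_A22 libraries, so both EZH2_A22 values lay between the NT values. The difference of EZH2_A22 minus NT was -0.00295 (two-sided exact permutation p = 1), and its sign turned when means were used in place of medians (0.00993). Sites with levels of 0.5 or higher were 2.17% and 6.52% of the NT lists and 3.45% and 4.95% of the EZH2_A22 lists, a difference of -0.148 percentage points (exact permutation p = 1). The lowest level in each list was close to 0.1, between 0.0930 and 0.125. List medians were also alike between editors, at 0.250 to 0.263 in REPAIR.t1 and 0.263 to 0.269 in dCas13d-ADAR. Yet REPAIRv2 was lower than both at most shared sites, as given below. Like medians of whole lists therefore do not show like levels at the same sites.

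**Figure D1:**
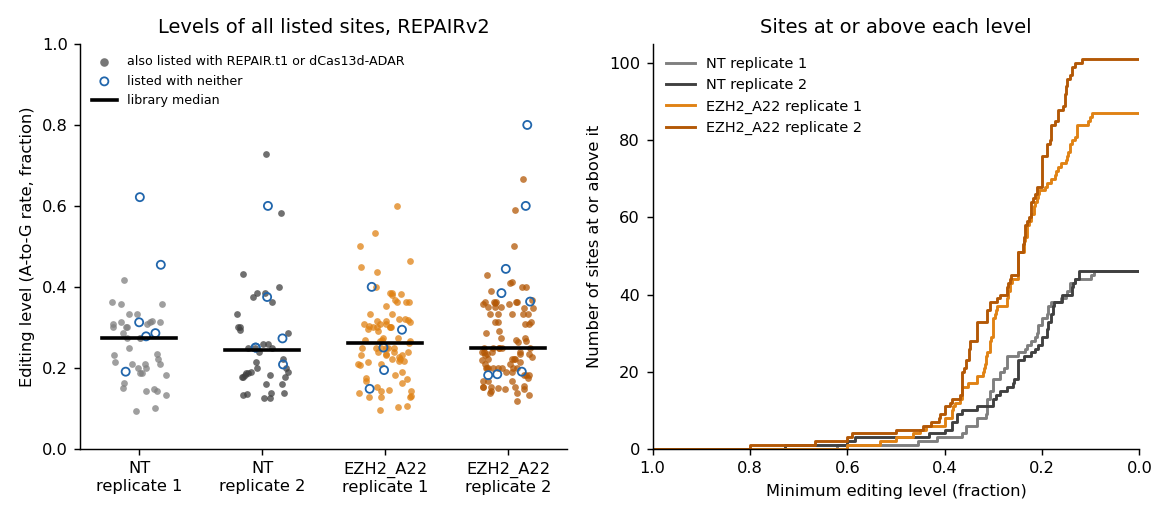
Left, editing level (fraction) of each listed site in the 2 NT and 2 EZH2_A22 libraries of REPAIRv2, with a bar at the library median; filled points are sites also listed with REPAIR.t1 or dCas13d-ADAR and open points are sites listed with neither. Right, number of sites at or above each minimum level (axis from 1 to 0); the EZH2_A22 curves end at 87 and 101 sites and both NT curves at 46, while the medians lie between 0.244 and 0.273.

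The highest sites differed from library to library. In NT replicate 1 they were position 56130743 of chromosome 7 (0.622), position 28661831 of chromosome 1 (0.455) and position 33954738 of chromosome 17 (0.417). In NT replicate 2 they were position 195778213 of chromosome 3 (0.727), position 120898999 of chromosome 12 (0.6) and position 231685066 of chromosome 2 (0.583). None of these 6 was among the highest 3 of another REPAIRv2 library. EZH2_A22 replicate 1 was led by position 24970720 of chromosome 22 (0.6), position 42856330 of chromosome 6 (0.533) and position 55317828 of chromosome 1 (0.5). EZH2_A22 replicate 2 was led by position 53583966 of chromosome 12 (0.8), position 77083891 of chromosome X (0.667) and position 153061314 of chromosome X (0.6). Of these 12 sites, 11 were in 1 REPAIRv2 list and 1, position 231685066, was in 2.

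The sites fell into 3 classes by guide. Of the 205, 124 (60.5%) were listed with the EZH2_A22 guide only, 46 (22.4%) with the NT guide only and 35 (17.1%) with both guides. Most sites were seen in a single library, with 153 of 205 (74.6%) in 1 list, 52 in at least 2, 18 in at least 3 and 5 in all 4. The single-library sites were 22 and 21 of the NT lists and 53 and 57 of the EZH2_A22 lists. Of the 124 EZH2_A22 sites 14 were in both EZH2_A22 libraries, and of the 46 NT sites 3 were in both NT libraries.

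Libraries with the same guide did not share more of the shorter list than libraries with different guides. The 2 NT libraries shared 11 sites, 23.9% of each list. The 2 EZH2_A22 libraries shared 29 sites, 33.3% of the list of replicate 1 and 28.7% of that of replicate 2. Between guides the 4 pairs shared 12 to 20 sites, which was 26.1% to 43.5% of the NT list and 13.8% to 19.8% of the EZH2_A22 list. The mean share of the shorter list was 28.6% within guides and 34.2% between guides. The Jaccard index, which is the shared sites over all sites of a pair, gave the opposite order, at 15.9% within and 12.6% between guides. It depends on the lengths of the lists, as the share of the shorter list does, so neither order is read as a difference between the guides. Of all sites of an NT library, 45.7% and 47.8% were found in at least 1 EZH2_A22 list.

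The site of most interest for the guide lies on chromosome 7, the chromosome that carries EZH2 (RefSeq, GRCh38.p14). Position 148515165 was listed at 0.364 in EZH2_A22 replicate 2 of REPAIRv2, at 0.435 and 0.250 in the 2 EZH2 libraries of dCas13d-ADAR, and in none of the 6 NT libraries of the 3 editors. It was also missing from EZH2_A22 replicate 1 of REPAIRv2, from REPAIR.t1 with the EZH2_A22 guide and from DECOR (2 libraries each for the last 2). Whether it lies in EZH2 or at a guide's target was not analysed here, and it was singled out after its values were seen. Within 1000 bases of it no list held another position, and the nearest listed position was 2554 bases away. Within 20000 bases on either side 15 other positions were listed, 8 by REPAIR.t1 or dCas13d-ADAR and 8 by DECOR, and none by REPAIRv2. Among those 15, 7 were in at least 1 NT library and 7 in at least 1 library with an EZH2 guide, so the surroundings were listed with both guides.

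A few other REPAIRv2 sites were listed with EZH2 guides only in more than 1 editor. Among the 205 sites, 5 were in at least 2 EZH2 libraries of the 3 editors and in no NT library. Position 122753951 on chromosome 6 was listed at 0.273 in EZH2_A22 replicate 1 of REPAIRv2, at 0.4 in 1 EZH2_A22 library of REPAIR.t1 and at 0.273 in 1 EZH2 library of dCas13d-ADAR. Position 151789848 on chromosome 6 was listed at 0.385, 0.286 and 0.308 in 1 EZH2 library each of REPAIRv2, REPAIR.t1 and dCas13d-ADAR. Position 315020 on chromosome 16 was in 1 REPAIRv2 (0.333) and 1 dCas13d-ADAR (0.381) library with an EZH2 guide. The other 2 are the chromosome 7 site above and a chromosome 5 site described below, which REPAIRv2 alone listed. The reverse pattern, with NT in place of EZH2, was held by 1 site, position 144686880 on chromosome 8, at 0.385 in NT replicate 2 of REPAIRv2 and at 0.412 and 0.429 in both NT libraries of dCas13d-ADAR. The EZH2_A22 lists of REPAIRv2 were longer, so more sites could enter on that side. Of the 124 EZH2_A22-only sites, 4 were in 1 and 6 in 2 of the 8 REPAIR.t1 and dCas13d-ADAR libraries. Of the 46 NT-only sites, 0 were in 1 and 3 in 2 of them. Whether sites in so few lists kept to 1 guide more often than chance gives was not tested.

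Of the other 4 chromosome 7 sites with a level in an EZH2_A22 list, position 45024016 was also in NT replicate 1, at 0.208 against 0.231 in EZH2_A22 replicate 2. Position 102949499 was in EZH2_A22 replicate 2 alone (0.364), in no REPAIR.t1 or dCas13d-ADAR list. Positions 134851253 and 135611825 were in EZH2_A22 replicate 1 alone, at 0.222 and 0.214. Both of these were also in NT libraries of other editors, unlike position 148515165.

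Sites in both EZH2_A22 libraries and no NT library had moderate levels, and nearly all of them were listed with the NT guide in another editor. Over the 14 sites the levels ran from 0.0968 to 0.4. The highest was position 75632437 of chromosome 15, at 0.379 and 0.333 in the EZH2_A22 libraries, 0.579 ± 0.0418 in REPAIR.t1 and 0.692 ± 0.101 in dCas13d-ADAR (SD, n = 4 each). Next came position 57505169 of chromosome 16 (0.296 and 0.364), position 38042099 of chromosome 1 (0.4 and 0.250) and position 109242902 of chromosome 1 (0.292 and 0.312). Position 56365712 on chromosome 12 was at 0.320 and 0.250, position 28112900 of chromosome 16 at 0.238 and 0.240, position 27667894 of chromosome 8 at 0.267 and 0.2, and position 1227724 of chromosome 19 at 0.231 and 0.235. Lower still were position 48890247 of chromosome 8 (0.217 and 0.154), position 40328683 of chromosome 15 (0.161 and 0.156) and position 65771165 of chromosome 11 (0.171 and 0.143). The lowest was position 40328475 of chromosome 19, at 0.0968 and 0.138. The 2 libraries thus gave like levels at most of these sites, with the widest gap at position 38042099. Of the 14 sites, 11 were in each NT library of REPAIR.t1, and 11 and 12 were in the NT libraries of dCas13d-ADAR. Their absence from the REPAIRv2 NT lists therefore was not an absence from NT libraries in general.

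The exception was position 180670790 on chromosome 5, at 0.194 and 0.184 in the 2 EZH2_A22 libraries and in no list of any other editor. The nearest position listed by REPAIR.t1 or dCas13d-ADAR was 1546 bases away. Of the remaining 13 sites, the largest gap to another editor was at position 115273010 on chromosome 1, with 0.207 and 0.238 in the EZH2_A22 libraries and 0.619 ± 0.0268 in REPAIR.t1 (SD, n = 4). At position 27667894 on chromosome 8 the REPAIRv2 mean of 0.233 was close to that of the other editors, which listed it in 4 of 8 libraries.

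The 3 sites in both NT libraries and no EZH2_A22 library were likewise listed by all 8 REPAIR.t1 and dCas13d-ADAR libraries, those with EZH2 guides included. Position 80573819 on chromosome 17 was at 0.211 and 0.286 in the NT libraries, position 69177184 of chromosome 16 at 0.2 and 0.250, and position 103717875 of chromosome 4 at 0.364 and 0.133. The last had the widest gap of the 11 sites that the NT libraries share, 0.230, and stood at 0.611 ± 0.0429 in REPAIR.t1 and 0.555 ± 0.0642 in dCas13d-ADAR (SD, n = 4 each).

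Followed through the other editors, the EZH2_A22 excess lay in sites that those editors also gave. Of the NT lists 40 and 40 sites had a counterpart in REPAIR.t1 or dCas13d-ADAR lists, against 82 and 93 of the EZH2_A22 lists, a ratio of 2.18. Sites in no list of these editors numbered 6 and 6 in the NT libraries and 5 and 8 in the EZH2_A22 libraries, a ratio of 1.05. As shares of their lists, the followed sites made up 87.0% and 87.0% with NT and 94.3% and 92.1% with EZH2_A22, so the guides did not overlap. The difference was 6.21 percentage points (two-sided exact permutation p = 0.333, the smallest possible). Sites in all 8 REPAIR.t1 and dCas13d-ADAR libraries made up 52.2% and 58.7% of the NT lists and 52.9% and 49.5% of the EZH2_A22 lists. By that stricter count the EZH2_A22 share was not higher. By class, 113 of the 124 EZH2_A22-only sites (91.1%), 35 of the 46 NT-only sites (76.1%) and 34 of the 35 sites of both guides (97.1%) were listed by at least 1 of the 8 libraries.

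The classes were listed about equally often with either guide of the other editors. Of the 124 EZH2_A22-only sites, the NT libraries of REPAIR.t1 listed 86 and 81 and its EZH2_A22 libraries 91 and 92. The NT libraries of dCas13d-ADAR listed 89 and 84 of them and its EZH2 libraries 91 and 93. Both editors thus listed somewhat more of these sites with an EZH2 guide, by 2 to 11 sites a pair. The whole lists of REPAIR.t1 held 4683 and 4356 sites with NT and 4764 and 4784 with EZH2_A22. Those of dCas13d-ADAR held 5730 and 5795 with NT and 5834 and 5793 with EZH2. The gap was not adjusted for these lengths and was not tested. Of the 46 NT-only sites, the same 8 libraries listed between 26 and 30, with 28 and 28 for REPAIR.t1 NT, 27 and 28 for REPAIR.t1 EZH2_A22, 28 and 26 for dCas13d-ADAR NT and 30 and 29 for dCas13d-ADAR EZH2. At EZH2_A22-only sites listed with both guides, the mean level was 0.392 with the EZH2_A22 and 0.390 with the NT guide in REPAIR.t1 (89 sites), and 0.425 with the EZH2 and 0.442 with the NT guide in dCas13d-ADAR (91 sites). The NT-only sites had mean levels of 0.409 and 0.407 in REPAIR.t1 (29 sites) and 0.441 and 0.459 in dCas13d-ADAR (29 sites), in the same order of guides.

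Sites that every library of the longer lists held gave a common yardstick for the 4 REPAIRv2 libraries. There were 609 sites in all 8 REPAIR.t1 and dCas13d-ADAR lists. NT libraries of REPAIRv2 listed 24 and 27 of these (3.94% and 4.43%) and EZH2_A22 libraries 46 and 50 (7.55% and 8.21%). Both EZH2_A22 libraries were above both NT libraries, and the difference of 3.69 percentage points had an exact permutation p of 0.333 (two-sided), again the lowest that this design can reach. In all, 92 of the 609 were in at least 1 REPAIRv2 list. The median of their mean level over the 8 libraries was 0.420, against 0.319 for the 517 in none.

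The share of this yardstick that REPAIRv2 libraries listed was lowest below a mean level of 0.3 and highest at 0.6 or more in all 4 libraries, and it did not rise at each step in NT replicate 1. Below a mean level of 0.3 they listed 0% and 0.877% (NT) and 1.32% and 0.877% (EZH2_A22) of 228 sites. From 0.3 to 0.4 they listed 4.13% and 2.29% with NT and 4.59% and 7.34% with EZH2_A22, of 218 sites. From 0.4 to 0.5 they listed 3.48% and 8.70% with NT and 13.9% and 11.3% with EZH2_A22, of 115 sites. From 0.5 to 0.6 these shares were 20% and 14.3% against 34.3% and 31.4%, of 35 sites. From 0.3 to 0.6 both EZH2_A22 libraries were above both NT libraries in each range. At 0.6 or more, where only 13 sites lie, NT replicate 2 and EZH2_A22 replicate 1 both listed 38.5%. Read depth, which could also lengthen a list, is not in the files, and its part in the difference between the guides was not tested.

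**Figure D2:**
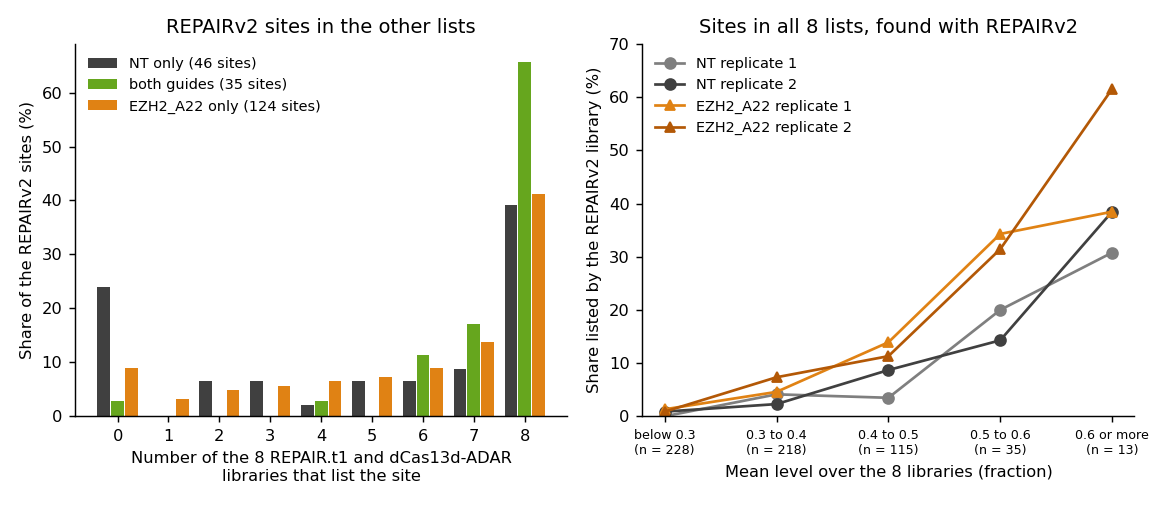
Left, share of the REPAIRv2 sites of each class (46 NT only, 35 both guides, 124 EZH2_A22 only) by the number of REPAIR.t1 and dCas13d-ADAR libraries, from 0 to 8, that list the site; 23.9% of the NT-only and 8.87% of the EZH2_A22-only sites are in none. Right, share of the 609 sites in all 8 of these lists that each REPAIRv2 library lists, by the mean level over the 8 libraries; lines join 1 library's values, and the last range holds 13 sites.

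REPAIRv2 levels were lower than those of the other editors at most shared sites with either guide. Of the 175 sites with a REPAIR.t1 level, 164 had a lower mean in REPAIRv2, with a median difference of -0.133. Of the 175 with a dCas13d-ADAR level, 161 were lower in REPAIRv2, with a median difference of -0.183. For EZH2_A22-only sites 101 of 109 were lower than in REPAIR.t1, for NT-only sites 31 of 32 and for sites of both guides 32 of 34. These counts describe sites that REPAIRv2 lists, and the editors were compared without a test.

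The 5 sites in all 4 REPAIRv2 libraries give the only complete comparison of levels. Position 156209533 on chromosome 1 was at 0.333 and 0.258 with NT and at 0.464 and 0.350 with EZH2_A22, so here alone of the 5, with position 235277158, both EZH2_A22 values exceeded both NT values. Position 235277158 on chromosome 1 was at 0.3 and 0.250 with NT and 0.321 and 0.333 with EZH2_A22. At position 65048599 on chromosome 11 the values were 0.250 and 0.375 with NT and 0.222 and 0.5 with EZH2_A22. There the 2 EZH2_A22 libraries lay outside the NT libraries on either side. Position 79614895 on chromosome 15 was at 0.273 and 0.432 with NT and 0.382 and 0.348 with EZH2_A22, where the NT values enclosed the others. Position 48362360 on chromosome 12 was at 0.3 and 0.4 with NT and 0.208 and 0.348 with EZH2_A22, the 1 site of the 5 with a lower mean under EZH2_A22.

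None of these differences passed limma's moderated test on the log2 odds of the level. The difference of EZH2_A22 minus NT at position 156209533 was 0.70 log2 units (95% interval -0.26 to 1.65, limma adjusted p = 0.829). At position 48362360 it was -0.50 log2 units, and at the other 3 sites it lay between 0.10 and 0.35. The levels of the same 5 sites in REPAIR.t1 and dCas13d-ADAR were higher, from 0.420 to 0.643 and from 0.632 to 0.751 on average.

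The next 13 sites were in 3 of the 4 libraries. Of these, 7 lacked NT replicate 1, 3 lacked NT replicate 2, 2 lacked EZH2_A22 replicate 1 and 1 lacked EZH2_A22 replicate 2. Of the 13 gaps 10 were thus in an NT list, and the NT lists were the shorter ones (46 and 46 sites against 87 and 101). Position 133331383 on chromosome 3 was the highest, at 0.286 with NT and 0.308 and 0.364 with EZH2_A22. Position 150238125 on chromosome 1 was at 0.161 with NT and 0.269 and 0.238 with EZH2_A22, and position 203160483 on chromosome 2 at 0.179 with NT and 0.267 and 0.360. In both, the NT level was the lowest of the 3. Position 72491603 on chromosome 15 was at 0.0930 with NT, the lowest level in any REPAIRv2 list, and at 0.138 and 0.150 with EZH2_A22, while it stood at 0.436 ± 0.0487 in REPAIR.t1 and 0.599 ± 0.0798 in dCas13d-ADAR (SD, n = 4 each). Position 41106898 on chromosome 17 hardly varied, at 0.312 and 0.3 with NT and 0.308 with EZH2_A22. Position 16302148 on chromosome 19 was at 0.231 and 0.190 with NT and 0.174 with EZH2_A22, so its lowest level was with EZH2_A22. Position 95036798 on chromosome 9 was at 0.222 in both NT libraries and 0.273 in EZH2_A22 replicate 1.

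The other 6 of the 13 lacked NT replicate 1, and at none of these 6 did the NT level lie below both EZH2_A22 levels. Position 76970657 on chromosome 10 was at 0.259 with NT and 0.368 and 0.219 with EZH2_A22, and position 663291 on chromosome 17 at 0.2 with NT and 0.364 and 0.2. Positions 53184956 on chromosome 14 and 74438358 on chromosome 2 were at 0.182 and 0.138 with NT, against 0.174 and 0.222 and against 0.129 and 0.269. The 2 EZH2_A22 libraries thus lay on either side of NT at both. Position 111214853 on chromosome 6 was at 0.160 with NT and 0.129 and 0.2 with EZH2_A22, and position 102962548 on chromosome 11 at 0.179 with NT and at 0.167 in both EZH2_A22 libraries. All 18 sites in at least 3 REPAIRv2 libraries were lower in REPAIRv2 than in REPAIR.t1 by their means, and 17 were lower than in dCas13d-ADAR, with position 663291 the exception.

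**Figure D3:**
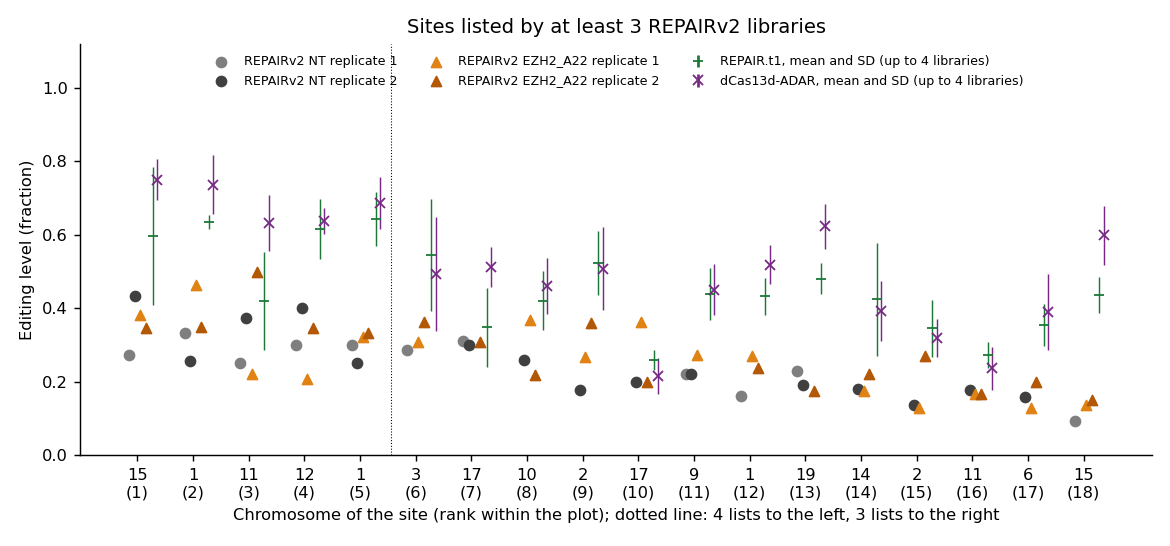
Editing level (fraction) of the 18 sites that 3 or 4 REPAIRv2 libraries list, one column a site, labelled by chromosome and rank: circles are NT and triangles EZH2_A22 libraries, and bars give the mean and SD over the REPAIR.t1 (dash) and dCas13d-ADAR (cross) libraries that list the site. Left of the dotted line are the 5 sites in all 4 lists, which lie between 0.208 and 0.5 in REPAIRv2; the REPAIRv2 mean is below the REPAIR.t1 mean at 18 sites and below the dCas13d-ADAR mean at 17.

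Among the sites listed with both guides more were higher than lower in the EZH2_A22 libraries, though not in every pair of libraries, and no single site passed the test. The test used 35 sites with a level in at least 1 library of each guide, with the spread of each site taken from all 12 libraries of REPAIRv2, REPAIR.t1 and dCas13d-ADAR. Of these 35, 0 (0%) had a limma adjusted p below 0.05, the smallest adjusted p was 0.804, and 1 was below an unadjusted 0.05. That site was position 150238125 on chromosome 1, with a difference of 0.79 log2 units of odds (95% interval 0.08 to 1.49, limma unadjusted p = 0.0329). The largest difference was at position 205685005 on chromosome 1, with 0.160 in NT replicate 2 and 0.389 in EZH2_A22 replicate 2 (1.68 log2 units, 95% interval -0.16 to 3.53). The largest fall was at position 231685066 on chromosome 2, from 0.583 in NT replicate 2 to 0.429 in EZH2_A22 replicate 2. Of the 35 sites, 17 rest on 1 library per guide.

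In direction, 26 of the 35 sites were higher and 8 lower with EZH2_A22 and 1, position 170489722 on chromosome 2, was at 0.333 with both guides, with a median difference of 0.25 log2 units of odds. Over all sites tested in the same fit, 1968 of 3808 were higher with the EZH2_A22 guide in REPAIR.t1 (median 0.03) and 2524 of 4993 with the EZH2 guide in dCas13d-ADAR (median 0.01). At those of the 35 sites that the other editors allowed, 16 of 33 were higher with the EZH2_A22 guide in REPAIR.t1 and 24 of 34 with the EZH2 guide in dCas13d-ADAR. The median difference there was -0.006 log2 units in REPAIR.t1 and 0.32 in dCas13d-ADAR. At these sites more were thus higher with the EZH2 guide in dCas13d-ADAR, as in REPAIRv2, while REPAIR.t1 was about even. Whether the shift differs between the editors was not tested. Pair by pair, the mean difference in level at shared sites was 0.0439 and 0.0471 for the EZH2_A22 libraries against NT replicate 1 (12 and 17 sites), and 0.0146 and 0.0382 against NT replicate 2 (14 and 20 sites). Of the 14 sites that NT replicate 2 and EZH2_A22 replicate 1 share, 6 were higher and 8 lower with EZH2_A22, and without EZH2_A22 replicate 2 the fit had 12 sites higher and 8 lower. Within a guide it was 0.00923 between the NT libraries (11 sites) and 0.00288 between the EZH2_A22 libraries (29 sites). The mean size of the difference at a site, without its sign, was 0.0559 to 0.0838 between guides, against 0.0835 between the NT libraries and 0.0672 between the EZH2_A22 libraries. Single sites thus moved as much between replicates as between guides. These pairs share libraries and sites, and no test was made of the direction.

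**Figure D4:**
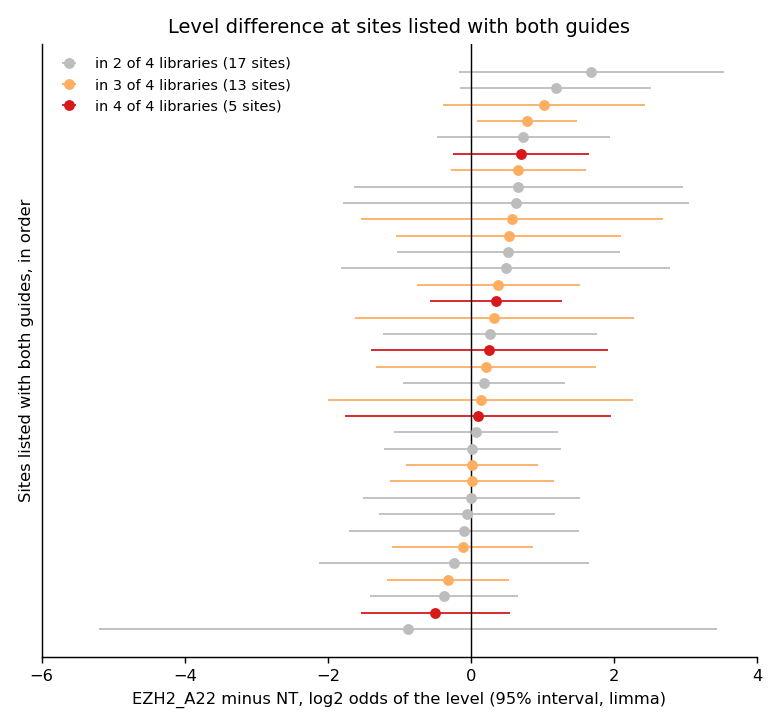
Difference in editing level of EZH2_A22 minus NT, in log2 units of odds with its 95% interval from limma, for the 35 sites listed with both guides, in order; colours give in how many of the 4 libraries a site is listed. Of the 35 points 26 lie above 0, 8 below and 1 at 0, and 1 interval leaves out 0 before adjustment.

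Sites that REPAIR.t1 and dCas13d-ADAR did not list were few and mostly seen once. They numbered 23, of which 11 were NT only, 11 EZH2_A22 only and 1 was in both guides; 21 were in a single library. Their levels ran from 0.148 to 0.8, with a median of 0.286 against 0.250 for the other 182 sites. The 5 highest were position 53583966 of chromosome 12 (0.8, EZH2_A22 replicate 2), position 56130743 of chromosome 7 (0.622, NT replicate 1), position 120898999 of chromosome 12 (0.6, NT replicate 2), position 153061314 of chromosome X (0.6, EZH2_A22 replicate 2) and position 28661831 of chromosome 1 (0.455, NT replicate 1). The highest sites of NT replicate 1 and of EZH2_A22 replicate 2 were thus in no list of the other 2 editors. DECOR, sampled with MALAT1 as its target label and read for other numbers of cycles, listed 6 of the 23, among them position 153061314 at 0.727 in 1 library. It listed 13 of the other 182 sites, and 19 of all 205. These counts are small, and their difference was not tested.

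Most of these 23 positions lay near sites of the other editors. The nearest position listed by REPAIR.t1 or dCas13d-ADAR was within 1000 bases for 17 of them and within 50 bases for 7, with a median distance of 123 bases. Such distances were not measured for other positions, so whether these 23 lay nearer than most was not tested. Position 10195063 on chromosome 3 (0.190, NT replicate 1) was 1 base from such a site, and position 10195068 (0.385, EZH2_A22 replicate 2) was 6 bases away. Positions 120898998 and 120898999 on chromosome 12 were the only adjacent pair within a REPAIRv2 list, at 0.375 and 0.6 in NT replicate 2, and with position 120899168, listed by EZH2_A22 replicate 2 (0.333), they span 170 bases.

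REPAIRv2 sites also lay near each other at times. With neighbours of at most 2000 bases joined, 27 of the 205 sites formed 12 neighbourhoods of 2 or 3 sites. Of these, 5 held sites of both guides, 7 held EZH2_A22 sites only and 0 held NT sites only. Over all 205 sites, 60.5% were EZH2_A22 only and 22.4% NT only. Neighbourhoods of EZH2_A22 sites only could thus form more easily than those of NT sites only. The split was not tested against these shares. On chromosome 6, positions 42855057, 42856330 and 42857144 span 2087 bases. The first was at 0.208 in NT replicate 2 and 0.182 in EZH2_A22 replicate 2, the second at 0.533 in EZH2_A22 replicate 1, and the third at 0.235 in NT replicate 1 and 0.222 in EZH2_A22 replicate 2. All 4 libraries thus listed a site in that stretch, but no position was in more than 2 of them. Within a single list, neighbours within 1000 bases were rare, with 1 pair in each NT library and 1 and 3 pairs in the EZH2_A22 libraries.

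The sites were spread over the chromosomes with either guide. The NT lists touched 16 and 17 chromosomes and the longer EZH2_A22 lists 21 and 22. Chromosome 1 held the most, with 7 and 5 sites in the NT libraries and 14 and 16 in the EZH2_A22 libraries, which was 14.6% of the distinct REPAIRv2 sites against 12% of the distinct sites of REPAIR.t1 and dCas13d-ADAR. Chromosome 19 held 5.37% of the REPAIRv2 sites against 9.95% of those of the other editors, at 3 and 3 sites with NT and 7 and 4 with EZH2_A22. On chromosome 11 the EZH2_A22 libraries listed 4 and 8 sites and the NT libraries 1 and 2. On chromosome 10 all 4 libraries listed 3 sites each, so there the lists did not lengthen with the guide. These counts are small and were not tested.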

How the data were processed

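The authors deposited 1 list of sites per library, with the A-to-G rate of each as a fraction, per the file headers. The submitters' processing notes name cutadapt, STAR 2.6.1b, hg19 and GRCh37. How sites were called and filtered is not given in the sources used here. Libraries were grouped by their titles. The members and measures were chosen with earlier results of these data known. Library values were tested with all 6 arrangements of 2 against 2 libraries (exact permutation, two-sided). Levels per site were tested in limma 3.58.1 (R 4.3.3) on log2((level + 0.01) / (1 - level + 0.01)), with 1 mean per editor and guide over 12 libraries, gaps left missing, and Benjamini-Hochberg adjustment over 35 sites. Tested on simulated data for these 35 sites, it recovered 26% of changes of 1 and 67% of changes of 2 log2 units (5 sites each). It also called 2.2% of the unchanged sites. Both sets were changed in the same run and the spread was drawn from the fit itself. With fewer changed sites or another spread the recovery could be lower. Named sites were those in at least 3 REPAIRv2 libraries, those in both libraries of 1 guide only, the 3 highest of each library, those passing the test and the 5 highest that neither other editor listed. Other sites were named after their values were seen. Chosen after seeing the data were the measure on sites in all 8 other libraries and the split of site numbers by the other editors' lists. Python 3.11.15, numpy 2.4.6, pandas 2.3.3 and matplotlib 3.10.9 were used. Alternatives changed the minimum level, offset, scale, overlap window and libraries.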

Additional observations from a re-analysis of the deposited data

How the results depend on the processing

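The ratio of site numbers stayed above 1 under each of its alternatives (1.05 to 2.35), with the lowest value, 1.05, at sites that neither REPAIR.t1 nor dCas13d-ADAR listed. The share of followed sites stayed higher with EZH2_A22 in each alternative, and 0 sites passed limma in all 10. The replicate block left the ratio at 2.04 (two-sided exact sign-flip p = 0.5, the smallest possible), gave a mean level difference at shared sites of 0.0410 and changed no call; the labels do not say that a number marks a shared culture, and same-numbered deviations correlated at 0.571 over 5 sites. With sites in at least 4 of the 8 libraries, the gap in the share of followed sites fell to 2.86 points. The guides then overlapped (two-sided exact permutation p = 0.667). For sites in all 8 libraries the order turned, at 55.4% with NT and 51.2% with EZH2_A22 on average. Directions of levels were unstable. The difference in median level turned to 0.00698 and 0.00401 with minimum levels of 0.2 and 0.3, to 0.00993 with means and to 0.0214 at sites also listed by REPAIR.t1 or dCas13d-ADAR, and ran from -0.0173 to 0.0114 with 1 library left out. The difference in the share at 0.5 or more turned to 1.35 points at a threshold of 0.4 and ran from -2.32 to 2.03 with 1 library left out. Overlap within minus between guides turned from -5.62 to 3.28 points with the Jaccard index, whose own values were 15.9% and 12.6%. The mean level difference at shared sites was 0.0359, or 0.262 on log2 odds, another scale. With 1 library left out, the log2 odds difference ran from -0.63 to 1.13 at position 65048599 on chromosome 11 and from -0.40 to 0.60 at position 79614895 on chromosome 15. The causes were not tested. The exact permutation tests of 2 against 2 libraries could not pass 0.05, and without read depth neither list length nor a missing site can be set against coverage.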
